A study of Homo sapiens with 12 samples.

Results

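The genes described here are 10 immediate early genes, chosen by symbol and with earlier results of these data known. They are FOS, FOSB, JUN, JUNB and JUND of the AP-1 family, the zinc finger factor EGR1, and IER2, MAFF, ZFP36 and CSRNP1. Shares and medians of these genes beside those of all tested genes are therefore descriptions only. All 10 are listed in both tables of the series, which hold 23284 symbols for a first experiment and 12421 for a knockout experiment. Of the 10, 8 passed the filter on low values in the first experiment (FOSB and EGR1 did not) and 10 passed it in the knockout experiment.

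RNA of polysome fractions was measured in 12 libraries of HEK293, an established human line from embryonic kidney. The libraries form 6 groups of 2. The first experiment has cells that received 5 ug of empty vector or of a STING plasmid 24 h earlier, and its labels give no genotype. The knockout experiment has wild-type cells with vector, wild-type cells with STING, PERK KO cells with vector and PERK KO cells with STING, at the same plasmid amount and time. STING, listed as TMEM173, is the adaptor of cytosolic DNA sensing, and PERK (EIF2AK3) is the eIF2alpha kinase of the stressed endoplasmic reticulum. Cells of all 6 groups, controls included, were kept in cycloheximide for 30 min before lysis, which halts elongating ribosomes. Cycloheximide is itself known to raise the mRNAs of immediate early genes, and its part in the levels below was not tested. STING came from a plasmid in transient transfection, and how the PERK KO line was made, or whether it is 1 clone, was not given in the sources used here. Nothing in the labels tells whether the 2 libraries of a group came from separate cultures, and p-values then reflect only a spread that may be technical.

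Immediate early genes are transcribed within minutes of a stimulus from factors that are already present, and their mRNAs and proteins are short-lived. FOS and JUN proteins pair through leucine zippers into AP-1, which binds DNA at TPA response elements, while EGR1 binds GC-rich sites. Serum response factor at CArG boxes and CREB or ATF factors at cAMP response elements are the best known activators of this class, and MAP kinases act upstream of both. AP-1 takes part in stress, growth and innate immune responses.

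Values are FPKM, fragments per length of transcript and per mapped fragments of the library, so levels can be compared between genes. Differences are on the log2(FPKM + 1) scale, which understates the change of low genes. Each comes with its limma standard error (SE) and a two-sided p adjusted by Benjamini and Hochberg over all tested genes, and a gene was called at an adjusted p under 0.05. Total RNA was not analysed here, so a difference can lie in the amount of an mRNA or in its loading with ribosomes, and fewer expressing cells cannot be told apart from less RNA per cell.

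The plasmid gene checked the labels. TMEM173 stood at 14.4 ± 0.836 FPKM (vector) and 67205 ± 2896 (STING) in the first experiment, and at 29.9 ± 9.55 and 41236 ± 815 in wild-type cells of the knockout experiment (SD, n = 2 each). In PERK KO cells it stood at 33.6 ± 14.4 with vector and 8925 ± 2244 with STING. EIF2AK3 lay at the lowest value of the knockout table, 1, in each library but PERK KO STING 2 (1.15), so the table cannot check the knockout. Of 6 HEK293 markers, NEFL, INA and LIN28B stood above 1 FPKM in all 12 libraries. PAX2 and LHX1, markers of kidney development, lay at or near 0 in the first experiment and at the floor in most libraries of the other, and NEFM was listed at 0 in the first. In the first experiment 4 hepatocyte markers summed to 1.41 to 4.54 FPKM and 5 fibroblast markers to 0.0463 to 0.276. Across genes, the 2 libraries of a group had a Pearson r between 0.948 and 0.991.

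The start regions of these genes were searched for the sites of the known activators. RefSeq promoter windows (GRCh38.p14, the 250 bases before an annotated start) matched all 10 genes with 12 windows, since MAFF and CSRNP1 have 2 starts each. The windows below belong to the 4 genes that rose with STING in the first experiment (FOS, JUNB, MAFF, CSRNP1), to ZFP36, which had the second highest difference of the 10 in wild-type cells of the knockout experiment, and to EGR1 as the only one with CArG box matches inside these windows. Capitals mark matches, on either strand, to the cAMP response element core TGACGT, to the AP-1 site TGANTCA, to the CArG box and to TATAA.
FOS (chr14:75278578-75278827, plus strand): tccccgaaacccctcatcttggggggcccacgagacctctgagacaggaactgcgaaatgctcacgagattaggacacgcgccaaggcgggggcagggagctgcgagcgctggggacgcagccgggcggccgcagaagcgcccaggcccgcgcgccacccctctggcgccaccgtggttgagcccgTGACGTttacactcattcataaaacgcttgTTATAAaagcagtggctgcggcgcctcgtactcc
JUNB (chr19:12791236-12791485, plus strand): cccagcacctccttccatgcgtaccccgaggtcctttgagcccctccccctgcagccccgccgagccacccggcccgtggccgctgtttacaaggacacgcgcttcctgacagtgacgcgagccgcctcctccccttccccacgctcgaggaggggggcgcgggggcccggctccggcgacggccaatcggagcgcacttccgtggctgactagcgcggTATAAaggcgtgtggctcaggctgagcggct
MAFF (chr22:38201744-38201993, plus strand): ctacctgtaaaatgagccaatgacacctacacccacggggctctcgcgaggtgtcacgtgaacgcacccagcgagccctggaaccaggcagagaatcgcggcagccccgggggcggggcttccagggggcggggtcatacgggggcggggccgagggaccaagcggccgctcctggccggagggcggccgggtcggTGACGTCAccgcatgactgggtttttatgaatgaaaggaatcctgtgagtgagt
CSRNP1 (chr3:39153592-39153841, minus strand): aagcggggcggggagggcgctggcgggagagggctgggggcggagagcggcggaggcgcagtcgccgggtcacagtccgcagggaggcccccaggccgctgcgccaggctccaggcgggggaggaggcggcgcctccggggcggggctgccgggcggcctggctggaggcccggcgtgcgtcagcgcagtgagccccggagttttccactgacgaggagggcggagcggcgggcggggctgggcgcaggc
ZFP36 (chr19:39406597-39406846, plus strand): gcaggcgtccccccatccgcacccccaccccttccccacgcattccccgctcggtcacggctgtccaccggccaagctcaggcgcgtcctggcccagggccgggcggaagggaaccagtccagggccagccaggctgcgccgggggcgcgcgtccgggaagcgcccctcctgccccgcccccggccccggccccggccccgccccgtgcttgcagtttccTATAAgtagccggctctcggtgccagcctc
EGR1 (chr5:138465229-138465478, plus strand): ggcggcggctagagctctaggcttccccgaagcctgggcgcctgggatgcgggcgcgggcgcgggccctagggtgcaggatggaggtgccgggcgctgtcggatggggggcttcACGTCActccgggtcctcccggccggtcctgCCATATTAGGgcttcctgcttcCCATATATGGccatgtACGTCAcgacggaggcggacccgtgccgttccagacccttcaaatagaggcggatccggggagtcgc

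FOS holds a TGACGT match at -64 to -59 from its start and TATAA matches at -34 to -29. MAFF holds the full palindrome TGACGTCA at -54 to -47 of its upstream start. JUNB and ZFP36 hold a TATAA match and no TGACGT, and the CSRNP1 window holds neither. EGR1 holds CArG boxes at -105 to -96 and at -83 to -74, with TGACGT matches at -136 to -131 and at -67 to -62. Over all 12 windows TGACGT was found in 5 (FOS, FOSB, JUND, EGR1 and MAFF), against 7.1% of 35116 RefSeq windows of the same length. TGACGTCA, which contains TGACGT, was found in 2 (JUND and MAFF), against 1.65%. TATAA was found in 5 windows against 18.9%, the GC box GGGCGG in 9 against 42.6%, and the CArG box in 1 against 1.16%. TGANTCA was found in 0 of 12 windows (6.57% of all), the composite C/EBP-ATF site TGATGNAA in 0 (3.14%) and the EGR site GCGNGGGCG in 1, that of EGR1 (8.41%). These matches are descriptions of letters in a window, not of bound factors.

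In vector-transfected cells of the first experiment the 10 mRNAs spanned a wide range of levels in polysome fractions. JUN, the main DNA-binding partner of FOS proteins, had the highest level, 29.1 ± 10.9 FPKM, followed by IER2, a nuclear regulator, at 13.1 ± 0.130 (SD, n = 2 each). JUNB stood at 4.29 ± 0.297, JUND at 3.65 ± 1.53, ZFP36 at 2.88 ± 1.18, CSRNP1 at 2.35 ± 0.477 and MAFF at 1.16 ± 0.760. EGR1 stood at 0.625 ± 0.333, FOS at 0.520 ± 0.507 and FOSB at 0.165 ± 0.233. JUN lay above IER2, and IER2 above JUNB, in both libraries, and CSRNP1 above MAFF. The other neighbours in the order overlapped.

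**Figure D1:**
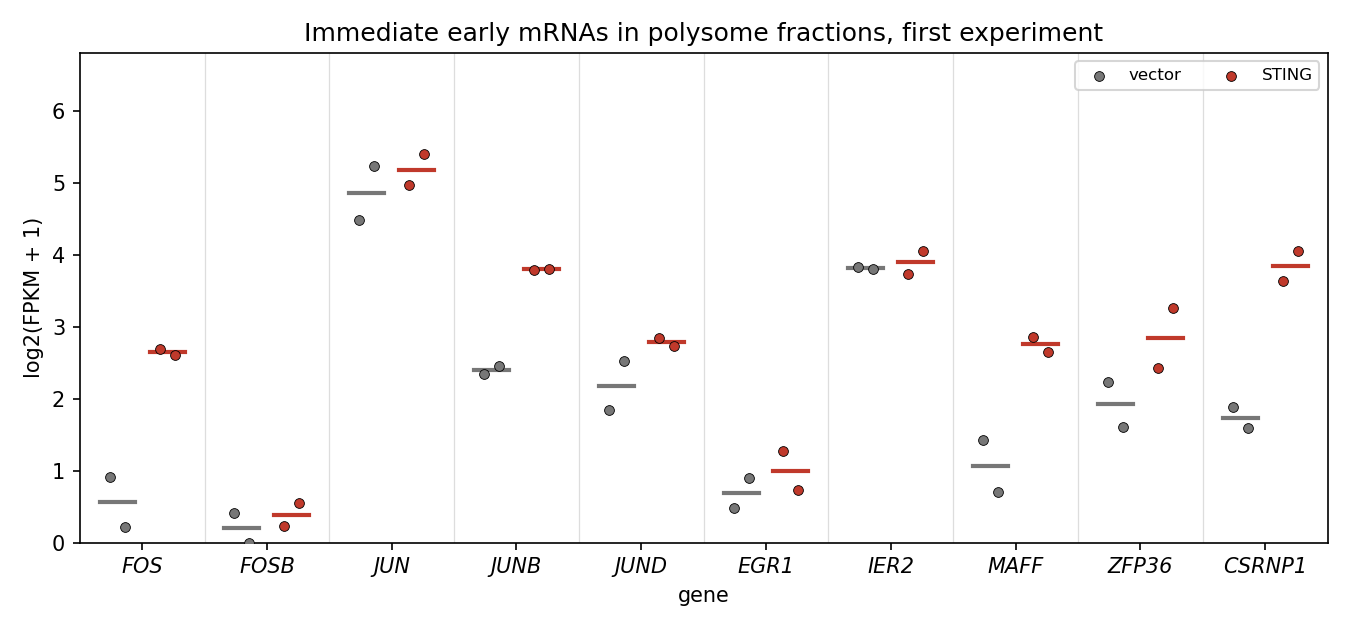
Levels of the 10 genes in the 4 libraries of the first experiment, as log2(FPKM + 1), with points for libraries and bars for group means. The STING points of FOS, JUNB, MAFF and CSRNP1 lie well above the vector points, while those of JUN and IER2 overlap them.

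With STING in the first experiment, mRNAs of FOS, JUNB, MAFF and CSRNP1 rose in the polysome fraction, and none of the 8 tested genes fell. That is 4 of 8 called higher, where 2.51% of all 9464 tested genes were called higher and 9.29% lower. FOS passed the filter on the mean only through its STING libraries (mean 0.520 FPKM with vector, 5.28 with STING). A call of lower was therefore hardly open to FOS. The median change of the 8 was 1.16, against -0.05 over all tested genes. A rise of 2 AP-1 subunits, a small MAF factor and CSRNP1 went with no call for JUN, JUND, IER2 and ZFP36.

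Among the AP-1 subunits FOS, the prototype of the class, had 0.878 and 0.161 FPKM in the vector libraries and 5.44 and 5.12 in the STING libraries. The groups did not overlap, and the change was 2.09 (SE 0.30, limma adjusted p = 0.00534), with a ratio of group means of 10.2. Ratios of FOS values between libraries equal those of whole fragments, of which the smallest set is 6 and 1 with vector and 36 and 31 with STING. True numbers may be a common multiple of these. A single STING to vector pair gave a ratio between 5.84 and 33.7.

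JUNB, an AP-1 subunit that can restrain JUN, stood at 4.08 and 4.50 FPKM in the vector libraries against 12.8 and 13.0 in the STING libraries. Replicates were close in both groups and the groups lay far apart, with a change of 1.40 (SE 0.20, adjusted p = 0.00546) and a ratio of means of 3.01. Its whole fragments were 23 and 23 with vector and 70 and 65 with STING.

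JUN itself stood at 21.5 and 36.8 FPKM in the vector libraries against 30.4 and 41.3 in the STING libraries. These groups overlapped, and the difference was 0.32 (95% interval -0.35 to 1.00, adjusted p = 0.518). JUND, the subunit that is usually present without a stimulus, stood at 2.57 and 4.73 in the vector against 6.20 and 5.62 in the STING libraries. Both STING libraries were above both vector libraries, but the difference of 0.61 (95% interval -0.04 to 1.25) was not called (adjusted p = 0.204). FOSB, a FOS paralog, stood at 0.330 and 0 in the vector against 0.170 and 0.466 in the STING libraries, too low to be tested, and the groups overlapped.

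MAFF, a small MAF protein that pairs with other leucine zipper factors and lacks an activation domain of its own, stood at 1.70 and 0.625 FPKM in the vector libraries against 6.29 and 5.28 in the STING libraries. The groups did not overlap, and the change was 1.69 (SE 0.30, adjusted p = 0.0118), a ratio of means of 4.97. CSRNP1, a nuclear protein first described as induced by AXIN1, stood at 2.68 and 2.01 in the vector against 11.5 and 15.6 in the STING libraries. Of the 8 tested genes it had the highest change on this scale, 2.11 (SE 0.24, adjusted p = 0.00301), with a ratio of means of 5.77 and groups that did not overlap. FOS came close with 2.09. With a pseudocount of 0.1 the order turned, with 3.41 for FOS and 2.48 for CSRNP1.

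ZFP36 encodes tristetraprolin, which binds AU-rich elements and speeds the decay of short-lived mRNAs, immediate early ones among them. It stood at 3.71 and 2.05 FPKM in the vector libraries against 4.41 and 8.59 in the STING libraries. Both STING values exceeded both vector values, the lower of them by little, and the difference of 0.93 (SE 0.35) was not called (adjusted p = 0.133). IER2 stood at 13.2 and 13.0 in the vector against 12.3 and 15.6 in the STING libraries, which overlapped, with a difference of 0.08 (95% interval -0.38 to 0.53, adjusted p = 0.838). EGR1 stood at 0.390 and 0.861 in the vector against 1.41 and 0.661 in the STING libraries. It overlapped too, and its mean was too low to be tested.

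Counting groups that do not overlap, 6 of the 8 tested genes (FOS, JUNB, JUND, MAFF, ZFP36 and CSRNP1) had both STING libraries above both vector libraries, where 24.2% of all tested genes did. The 4 calls depended on having both STING libraries: without STING library 1 or without STING library 2, 0 of 8 were called, with adjusted p of 0.103 to 0.204 for the 4 genes, and without the intensity trend and robust estimation 0 were called as well (adjusted p 0.0770 to 0.0948). Their changes stayed between 1.32 and 2.43 when any 1 library was left out. Of the haematopoietic markers, LYZ moved with the groups, at 2.62 and 3.12 FPKM with vector and 0.900 and 1.23 with STING, while PTPRC, CD3E and SPI1 were listed at 0 in all 4 libraries. The part of such RNA in the changes was not tested.

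**Figure D2:**
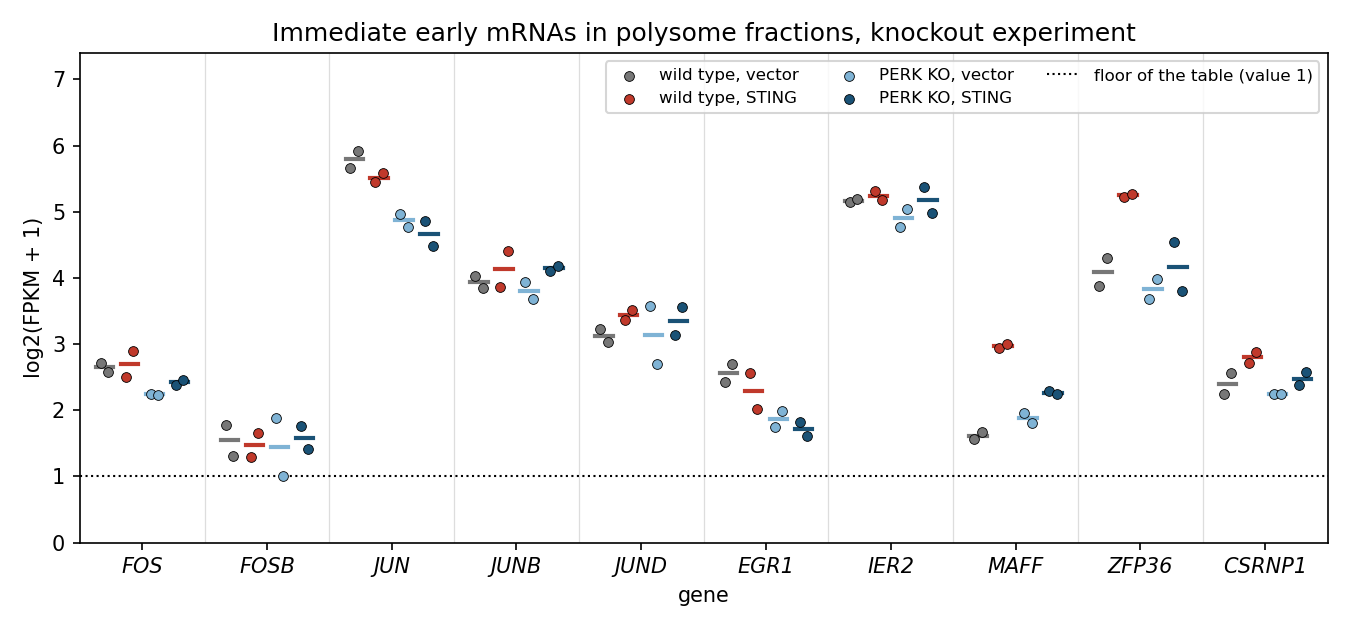
Levels of the 10 genes in the 8 libraries of the knockout experiment, as log2(FPKM + 1), with points for libraries, bars for group means and the table's floor as a dotted line. MAFF and ZFP36 stand apart in wild-type cells with STING, and JUN lies lower in both PERK KO groups than in both wild-type groups.

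The knockout experiment addresses whether the response depends on PERK. In wild-type cells there, 0 of the 10 genes passed the test with STING. At this threshold 0.00816% of 12254 tested genes were called, that is TMEM173 alone. At an unadjusted p under 0.05, 2 of the 10 genes were higher (MAFF and ZFP36) and 0 lower, where 0.441% of all tested genes were higher and 12.4% lower. The median over the 10 was 0.14, against -0.27 over all tested genes. That general shift depends on the scaling: after median-of-ratios scaling it was 0.05.

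MAFF stood at 1.96 and 2.18 FPKM in the vector libraries of wild-type cells against 6.72 and 6.98 in their STING libraries. The replicates lay close together and the groups far apart, with a difference of 1.35 (SE 0.19, limma unadjusted p = 0.000117), but the adjusted p was 0.384. This difference ranked 3 of 12254 tested genes. ZFP36 stood at 13.7 and 18.8 in the vector against 36.5 and 37.4 in the STING libraries, again without overlap. Its difference was 1.16 (SE 0.29, limma unadjusted p = 0.00444, adjusted p = 0.384) and ranked 5. So the 2 genes had ratios of group means of 3.31 and 2.28 and still did not pass a threshold set over all genes.

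The other genes differed less in wild-type cells. CSRNP1 stood at 3.74 and 4.89 FPKM in the vector libraries against 5.57 and 6.39 in the STING libraries, a difference of 0.40 (95% interval -0.09 to 0.89, adjusted p = 0.417). FOS stood at 5.58 and 4.98 in the vector against 4.68 and 6.46 in the STING libraries, a difference of 0.05 (95% interval -0.44 to 0.55). For FOS this interval lies below the change of 2.09 seen in the first experiment, though the 2 tables were made separately and that difference was not tested. JUNB, at 15.4 and 13.4 with vector and 13.6 and 20.3 with STING, had a difference of 0.20 (95% interval -0.36 to 0.75). The STING groups of FOS and JUNB thus overlapped with their vector groups.

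JUND stood at 8.33 and 7.15 FPKM in the vector libraries against 9.31 and 10.4 in the STING libraries (difference 0.31), IER2 at 34.3 and 35.5 and at 38.7 and 35.1 (difference 0.07). FOSB stood at 2.43 and 1.47 and at 1.44 and 2.15, near the floor of the table. JUN stood at 49.8 and 59.6 in the vector against 42.8 and 46.9 in the STING libraries, the only one of the 10 with both STING libraries below both vector libraries, as 52.3% of all tested genes were. EGR1 stood at 4.40 and 5.48 in the vector against 4.91 and 3.04 in the STING libraries. The differences of JUN (-0.28), EGR1 (-0.27) and FOSB (-0.07) changed sign under median-of-ratios scaling, to 0.11, 0.04 and 0.17. Both STING libraries were above both vector libraries for 4 of 10 (JUND, MAFF, ZFP36 and CSRNP1), against 3.31% of all tested genes.

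In PERK KO cells 0 of the 10 genes passed the test with STING, where 0.00816% of all tested genes were called (TMEM173), and 0 of the 10 had an unadjusted p under 0.05, where 7.7% of tested genes did. MAFF stood at 2.87 and 2.49 FPKM in the vector libraries against 3.88 and 3.73 in the STING libraries. These groups did not overlap, and the difference was 0.39 (95% interval -0.06 to 0.83, adjusted p = 0.705). ZFP36 stood at 11.8 and 14.9 in the vector against 22.3 and 12.9 in the STING libraries, so that only PERK KO STING 1 lay above both vector libraries, with a difference of 0.34 (95% interval -0.34 to 1.01).

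FOS stood at 3.75 and 3.69 FPKM in the vector libraries against 4.23 and 4.47 in the STING libraries, JUNB at 14.4 and 11.8 and at 16.2 and 17.2, and CSRNP1 at 3.75 and 3.73 and at 4.23 and 4.95. All 3 lay without overlap, yet their differences were only 0.18, 0.34 and 0.23. The whole fragments of these 3 genes were equal in PERK KO vector 1 and PERK KO STING 1 (38, 120 and 58 in each, as the smallest set). The ratio of 1.13 between these libraries therefore follows from their relative depth (1.285 and 1.14), for which FPKM corrects. JUN stood at 30.3 and 26.3 in the vector against 28.0 and 21.3 in the STING libraries. EGR1 stood at 2.37 and 2.98 and at 2.52 and 2.06, and IER2 at 26.2 and 31.8 and at 40.6 and 30.4. JUND stood at 10.9 and 5.51 and at 7.84 and 10.9, and FOSB at 2.67 and 1.01 and at 2.39 and 1.65. For these 5 the groups overlapped. Including MAFF, 4 of 10 had STING above vector throughout, against 5.66% of all tested genes, and the median was 0.23 against -0.11 over all.

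**Figure D3:**
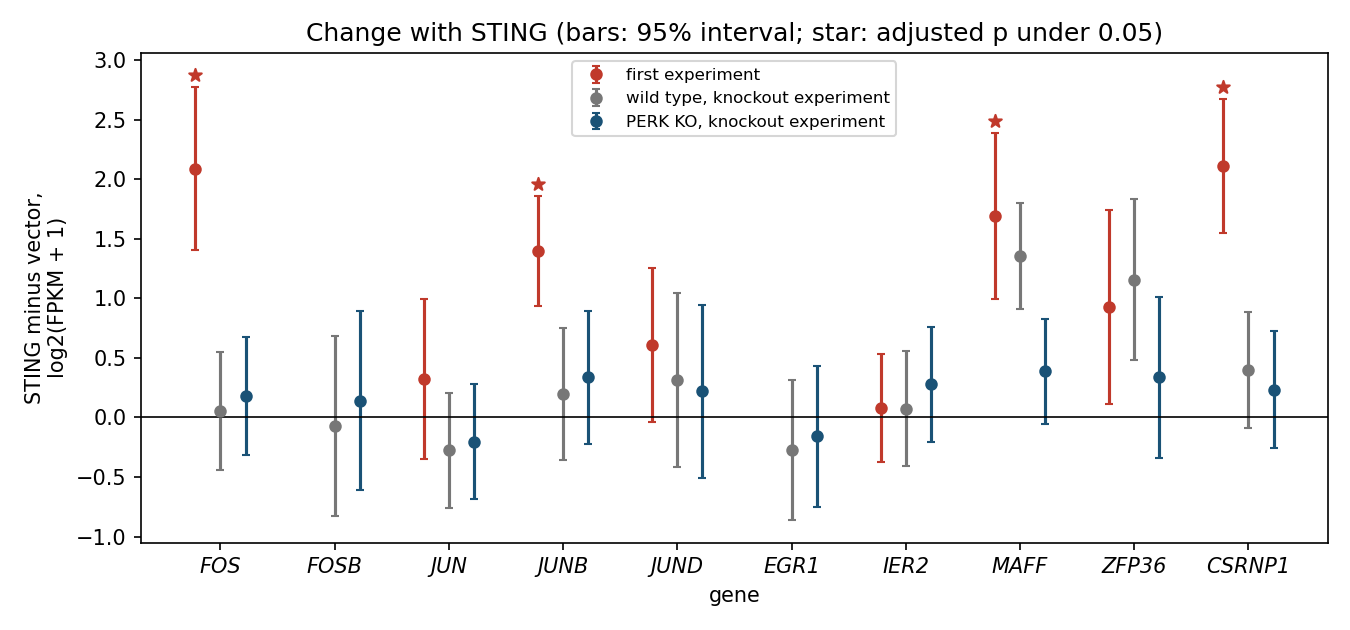
Change with STING of each gene in 3 settings, as the difference of mean log2(FPKM + 1) with its 95% interval; FOSB and EGR1 were too low to test in the first experiment. Stars mark an adjusted p under 0.05, which FOS, JUNB, MAFF and CSRNP1 reached in the first experiment.

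The difference of the 2 responses was tested as an interaction, knockout minus wild type. No gene was called (0% of 12254). At an unadjusted p under 0.05 stood 3.87% of tested genes and 1 of the 10, MAFF. For MAFF the interaction was -0.97 (95% interval -1.59 to -0.34, limma unadjusted p = 0.00747, adjusted p = 0.966), so the smaller difference of MAFF in PERK KO cells was not called. For ZFP36 it was -0.82 (95% interval -1.77 to 0.14, adjusted p = 0.966), and without PERK KO STING 2 it was -0.45. The other 8 genes lay between -0.17 and 0.21, and the intervals of all 8 held 0. Under median-of-ratios scaling FOS, JUN, JUNB and EGR1 changed sign, to between -0.13 and -0.05. TMEM173 itself moved with genotype under STING: PERK KO cells held 8925 FPKM where wild-type cells held 41236, a difference of -2.23 (SE 0.34, adjusted p = 0.0320). That call held without PERK KO vector 1 and was lost without any 1 of the other 7 libraries (adjusted p 0.0508 to 0.274) and from the 4 libraries compared alone (0.0973). The part of the lower plasmid transcript in the response of MAFF and ZFP36 was not tested.

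Between genotypes with vector, JUN had the largest difference of the 10. In vector libraries JUN stood at 49.8 and 59.6 FPKM in wild type against 30.3 and 26.3 in PERK KO cells, and the groups were well apart. The difference was -0.92 (SE 0.21, limma unadjusted p = 0.00235), with an adjusted p of 0.189. With STING it stood at 42.8 and 46.9 in wild type against 28.0 and 21.3 in PERK KO cells, a difference of -0.85 (SE 0.21, adjusted p = 0.0948). All 4 PERK KO libraries therefore lay below all 4 wild-type libraries, with neither difference past the threshold.

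EGR1 stood at 4.40 and 5.48 FPKM in wild-type cells with vector and at 2.37 and 2.98 in PERK KO cells with vector, a difference of -0.69 (SE 0.25, adjusted p = 0.338). With STING it stood at 4.91 and 3.04 in wild type against 2.52 and 2.06 in PERK KO cells, a difference of -0.58 (SE 0.25, adjusted p = 0.300). FOS differed by -0.41 with vector and by -0.28 with STING, and like JUN and EGR1 its PERK KO libraries lay below the wild-type libraries of the same plasmid each time. In the whole comparison with vector, 0 of the 10 genes were called, where 0.049% of tested genes were, and 2 of the 10 (JUN and EGR1) were lower at an unadjusted p under 0.05, where 7.99% were. Groups did not overlap for 4 lower genes (FOS, JUN, EGR1 and IER2), against 25.8% of all tested genes, and for 1 higher gene (MAFF), against 12.5%.

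With STING, 0 of the 10 were called between genotypes, where 1.75% of tested genes were, and 3 of the 10 (JUN, MAFF and ZFP36) were lower at an unadjusted p under 0.05, where 7.1% were. The difference of ZFP36 was -1.08 (SE 0.29, adjusted p = 0.118), or -0.70 without PERK KO STING 2, and that of MAFF -0.71 (SE 0.19, adjusted p = 0.116). MAFF stood at 6.72 and 6.98 FPKM in wild type against 3.88 and 3.73 in PERK KO cells, and ZFP36 at 36.5 and 37.4 and at 22.3 and 12.9. Groups did not overlap for 6 lower genes (FOS, JUN, EGR1, MAFF, ZFP36 and CSRNP1), against 20.6% of all tested genes, and for 0 higher genes, against 24.8%. JUNB, JUND, FOSB and IER2 overlapped, with differences between -0.08 and 0.11. With the replicate number as a block JUN passed the threshold (adjusted p = 0.0455), and without trend and robust estimation MAFF did (adjusted p = 0.0474). APOA1, the 1 hepatocyte marker in this table, stood at 3.48 to 8.79 FPKM in the PERK KO libraries and at no more than 2.50 in the wild-type libraries, and the 6 HEK293 markers summed to 18.1 to 30.3 and to 15.0 to 22.7. Their part in the genotype differences was not tested.

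**Figure D4:**
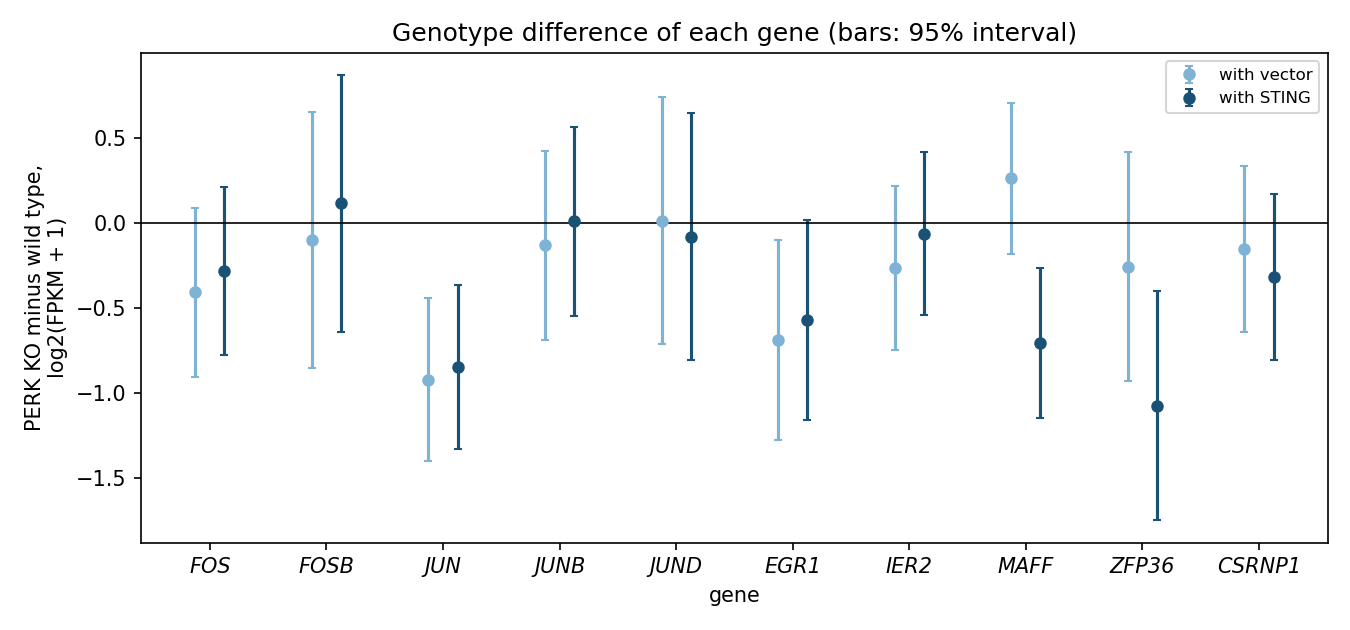
PERK KO minus wild type for each gene, with vector and with STING, as the difference of mean log2(FPKM + 1) with its 95% interval. JUN lies below 0 by about the same amount with both plasmids (-0.92 and -0.85), while MAFF and ZFP36 lie lower with STING than with vector.

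Vector levels of the 10 genes were higher in the knockout experiment than in the first, in tables that were made separately and not tested against each other. FOS, FOSB and EGR1 were under 1 FPKM in both vector libraries of the first experiment, and since the knockout table holds no value under 1, these 3 had to be higher there. For the other 7, both wild-type vector libraries lay above both vector libraries of the first experiment, where 61.8% of 8669 genes did that were tested in both tables and reached 1 FPKM in a first vector library. FOS stood at 5.58 and 4.98 FPKM against 0.878 and 0.161, a ratio of means of 10.2, which put wild-type vector cells at the level that FOS had with STING in the first experiment (5.44 and 5.12). EGR1 had a ratio of 7.89, and FOSB stood at 2.43 and 1.47 against 0.330 and 0, which gives no fold since 1 library was at 0. Of the 7, ZFP36 had a ratio of 5.64, JUNB of 3.36, IER2 of 2.67, JUND of 2.12, JUN of 1.88, CSRNP1 of 1.84 and MAFF of 1.78, against a median ratio of 1.55 over the 8669 genes.

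Other genes of the pathway were counted from lists of related factors, also chosen with earlier results of these data known. Of 14 other AP-1 subunits and leucine zipper partners, 8 were tested in the first experiment, with a median of 0.51. With STING 1 was called higher and 0 lower, where 2.51% of all tested genes were called higher and 9.29% lower. The 1 was ATF3, a stress-induced factor that pairs with JUN proteins, at 13.1 and 8.34 FPKM with vector and 55.0 and 51.3 with STING (change 2.24, SE 0.22, adjusted p = 0.00176). ATF3 stood at 16.3 and 20.5 with vector and 26.1 and 28.8 with STING in wild-type cells of the knockout experiment (difference 0.56, adjusted p = 0.384), and at 11.9 and 14.6 and 20.0 and 23.5 in PERK KO cells (difference 0.68, adjusted p = 0.520). All 3 pairs of groups lay without overlap, and the first was called, but not without STING library 1 (adjusted p = 0.126) or STING library 2 (0.114).

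Of 30 other immediate early genes, 23 were tested in the first experiment, 4 rose and 0 fell, with a median of 0.51 against -0.05 over all genes. Over all 9464 tested genes, 2.51% were called higher and 9.29% lower. CYR61, a secreted matrix protein, changed by 1.73 (adjusted p = 0.00462). MYC, the growth regulator, changed by 1.36 (adjusted p = 0.0145) and KLF6, a zinc finger factor, by 1.14 (adjusted p = 0.0205). ARC, an activity-regulated cytoskeletal gene, changed by 1.55 (adjusted p = 0.0243). Like FOS, ARC passed the filter on the mean only through its STING libraries (mean 0.225 FPKM with vector, 2.69 with STING). Of 16 genes of MAP kinase feedback, 9 were tested, of which DUSP1, a phosphatase of MAP kinases, rose (change 0.81, SE 0.21, adjusted p = 0.0418) and none fell. Of 30 kinases and serum response factor cofactors upstream, 21 were tested with 0 higher and 0 lower and a median of 0.16. Leaving out STING library 1 or STING library 2 lost the calls of CYR61, MYC, KLF6 and DUSP1 (adjusted p 0.135 to 0.295). KLF6 also lost its call without vector library 1 or 2, DUSP1 without vector library 1, and ARC without STING library 1 or vector library 1 or 2 (adjusted p 0.0514 to 0.141). ARC was too low to be tested without STING library 2. Of 6 other EGR and NR4A genes NR4A1 alone was tested (difference 0.67, adjusted p = 0.0929).

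In the knockout experiment 0 genes of these lists were called with STING in either genotype, where 0.00816% of all tested genes were called in each (TMEM173 alone). Among the 29 other immediate early genes tested, 4 were higher and 0 lower in wild-type cells at an unadjusted p under 0.05, and 2 higher and 0 lower in PERK KO cells. Of all 12254 tested genes, 54 were higher and 1516 lower in wild-type cells, and 130 higher and 814 lower in PERK KO cells. Medians in wild-type cells were 0.04 for the AP-1 partners, 0.15 for other immediate early genes, -0.04 for MAP kinase feedback and -0.21 for the upstream genes, against -0.27 over all tested genes. ARC was the nearest in wild-type cells: it was at the floor in both vector libraries and stood at 2.43 and 2.62 FPKM with STING (difference 0.82, adjusted p = 0.384). Between genotypes with STING, 1.75% of tested genes were called. CYR61 was lower in PERK KO cells (change -1.22, SE 0.23, adjusted p = 0.0475), at 3.33 and 4.47 against 11.1 and 9.60. With vector CYR61 was already lower there without overlap (4.25 to 5.54 FPKM against 7.95 to 8.73). ARC was lower with STING too (change -0.64, adjusted p = 0.0477), at 1.10 to 1.43 FPKM, near the floor, against 2.43 to 2.62. Both calls were lost when any 1 of the 8 libraries was left out (adjusted p 0.0575 to 0.370) and from the 4 libraries compared alone (0.123 and 0.201). IER3, an early survival gene, went the other way without a call, at 98.3 and 87.0 FPKM in PERK KO cells with STING against 30.5 and 32.3 in wild-type cells (difference 1.53, adjusted p = 0.0670). Already with vector IER3 was higher in PERK KO cells without overlap (34.2 to 64.4 FPKM against 17.8 to 28.2).

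**Figure D5:**
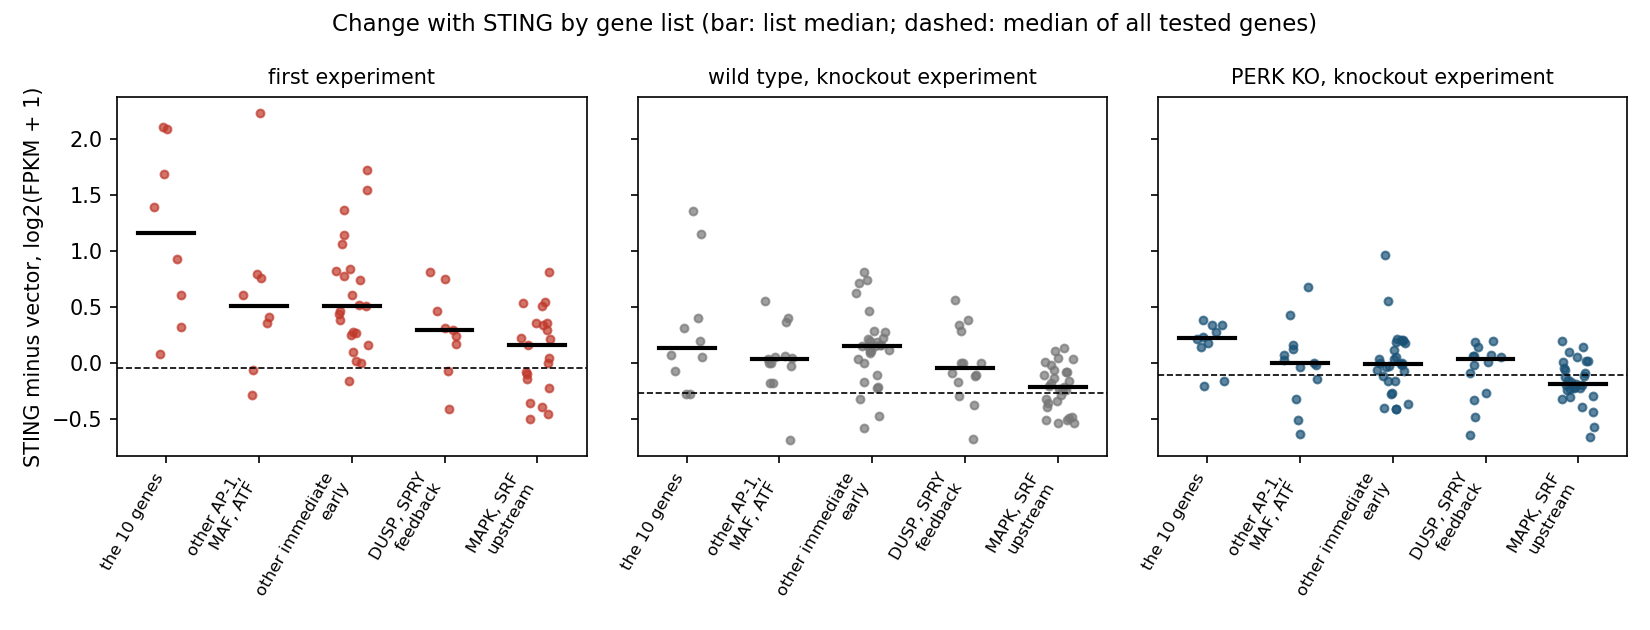
Change with STING by gene list in the 3 settings, as the difference of mean log2(FPKM + 1), with points for tested genes, bars for list medians and dashed lines for the medians of all tested genes. In the first experiment the 10 genes (8 tested) have the highest median, 1.16, and the upstream list has the lowest, 0.16.

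The 10 genes did not share 1 pattern. With the mean scaled profile of the other members, CSRNP1 had Pearson r of 0.97 over the 4 libraries of the first experiment and 0.84 over the 8 of the knockout experiment, the highest of the 8 genes tested in both tables. IER2 had the lowest r in the first experiment (0.45, and 0.40 in the other) and JUND the lowest in the knockout experiment (0.32, and 0.68 in the first). Of 4836 other genes with a mean of at least 5 FPKM in both tables, the 5 most like the profile were TPT1 (r of 0.93 and 0.90), ATF3 (0.92 and 0.87), ISG15 (0.95 and 0.84), HIST1H4A (0.99 and 0.82) and CHMP1B (0.88 and 0.79). These r describe few libraries that share their group means, library scaling and depth.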

How the data were processed

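Polysome-fraction RNA of 12 libraries was analysed from the authors' tables. Per the submitters' processing notes, FPKM values of the authors came from TopHat2 2.1.1, Cufflinks 2.2.1 and hg19. Per the labels' protocols, Smart-seq2 amplified the polyadenylated RNA, and both ends of fragments were read. The deposited table of the knockout experiment does not name its unit and has a lowest value of 1. It was read as FPKM with lower values set to 1, so falls to this floor and rises from it are understated. None of the 10 genes lay at that floor in any library. The gene annotation was not given in the sources used here. Reverse transcription with poly(T) primers, amplification and length scaling can each shift single genes.

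Neither table gives counts. Ratios of low values between libraries follow whole fragments (tolerance 0.01), which put relative depth at 0.885 to 1 in the first experiment and 0.823 to 1.28 in the other, and gave the smallest whole-fragment sets for 10 of 10 genes in the first and 8 of 10 in the other (not MAFF and FOSB). True numbers can be a common multiple.

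The test was limma 3.58.1 in R 4.3.3 after taking log2(FPKM + 1). Genes entered when their mean reached 1 and they were not constant (9464 and 12254 genes). The fit had 1 mean per group, eBayes with intensity trend and robust estimation, two-sided, Benjamini-Hochberg at 0.05, fitted within each table. The fit was also run on simulated data with planted changes and independent noise, which checks the code and not the calls made here. Groups and replicate numbers came from the sample titles. Numbers were to count as pairs if deviations of same-numbered libraries correlated above 0.1 for every pair of groups. In the knockout experiment 5 of 6 did (0.0421 to 0.528), and the 1 pair of the first had 0.0741, so they were not taken as pairs. The genes, the lists and the settings were chosen with earlier results of these data known. The named genes are the 10 whatever their values, list genes past the threshold or among the 4 with the largest difference in a contrast, and the 5 genes most like the mean profile. Promoter windows are from RefSeq (GRCh38.p14), the files' build being hg19, and only their letters were used.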

Additional observations from a re-analysis of the deposited data

How the results depend on the processing

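With 2 libraries a group, no counts and a floor in 1 table, small differences of low genes could not be seen. Of 907 values of the 10 genes under alternatives, 836 kept direction and side of the threshold. The 57 that reversed were genes without a call. This total says little about the calls: only FOS, JUNB, MAFF and CSRNP1 in the first experiment had a call to lose. All 4 lost it without trend and robust estimation. The count of genes called with STING in the first experiment (1117) became 580 without the filter on the mean and 17 without trend and robust estimation, and 38 to 818 with 1 library left out. Of the 10 genes, 4 called became 2 with a mean of at least 5 (FOS and MAFF were then not tested), 0 without trend and robust estimation, and 0 to 4 with 1 library left out. In wild-type cells 1 gene called became 1 to 2 with 1 library left out. In PERK KO cells it became 2 with the replicate block and 1 to 3 with 1 library left out. Between genotypes with vector, 6 called became 17 with a pseudocount of 0.1, 32 with a mean of at least 5, 53 with median-of-ratios scaling, 24 with quantile normalization, 0 without trend and robust estimation, 105 with the replicate block, 0 from the 4 libraries alone, and 0 to 3 with 1 library left out. Between genotypes with STING, 215 became 356 with a mean of at least 5, 449 with median-of-ratios scaling, 468 with quantile normalization, 851 with the replicate block, 0 from the 4 libraries alone, and 0 to 128 with 1 library left out. There, 0 of the 10 became 1 without trend and robust estimation (MAFF) and 1 with the replicate block (JUN). The block changed no other call of the 10 genes. The cause of these shifts was not tested, except that fewer genes or libraries enter some fits.

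Signs changed as follows, median-of-ratios scaling first and quantile normalization second. With STING in wild-type cells FOSB came to 0.17 and 0.15, JUN to 0.11 and 0.11, and EGR1 to 0.043 and 0.031. In the interaction FOS came to -0.046 and -0.080, JUN to -0.13 and -0.11, JUNB to -0.048 and -0.044, and EGR1 to -0.063 and -0.10. Between genotypes with vector JUNB came to 0.031 and 0.033, and FOSB to 0.021 under the first. With STING JUNB came to -0.017 and -0.011.

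With 1 library left out, these differences spanned 0. In the first experiment JUN ran from -0.053 to 0.70 and IER2 from -0.080 to 0.24. In wild-type cells FOS ran from -0.14 to 0.25, FOSB from -0.31 to 0.16, JUNB from -0.077 to 0.47 and EGR1 from -0.55 to 0.00066. In PERK KO cells FOSB ran from -0.29 to 0.58, JUND from -0.22 to 0.65 and ZFP36 from -0.034 to 0.71. In the interaction FOS ran from -0.069 to 0.32, FOSB from -0.22 to 0.65, JUN from -0.12 to 0.27, JUNB from -0.13 to 0.41, JUND from -0.53 to 0.34, EGR1 from -0.16 to 0.39 and IER2 from -0.00011 to 0.40. Between genotypes with vector FOSB ran from -0.54 to 0.33, JUND from -0.42 to 0.45 and CSRNP1 from -0.31 to 0.00084. With STING FOSB ran from -0.072 to 0.30, JUNB from -0.27 to 0.28, JUND from -0.30 to 0.13 and IER2 from -0.27 to 0.14.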
